A study of Mus musculus with 11 samples.

Results

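Autophagy is the route by which a cell wraps part of its own cytoplasm in a double membrane and delivers it to the lysosome. The genes described here are 37 genes of its core machinery, taken by gene symbol from the tables of the ileum and the colon. No filter on their values was used, but the list was chosen with earlier results of these data known. All 37 were found in both tables, 36 by that symbol and Atg101 by its older name 9430023L20Rik, among 12675 named genes of the ileum table and 12831 of the colon table. They were grouped by step: initiation (5 genes), nucleation (6), membrane supply (5), conjugation (11), the ATG8 family (5), receptors (3) and immune partners (2).

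RNA was sequenced from intestinal epithelial cells (IECs), released from the tissue by shaking in EDTA, of Vil-Ogt KO mice and wild-type (WT) mice, all 10 weeks old. Vil-Ogt KO mice lack Ogt, the single enzyme that attaches O-GlcNAc to proteins of the nucleus and cytoplasm, in cells with Villin-Cre, a recombinase driven by a promoter of the intestinal epithelium, so other cells in a preparation keep the gene. The libraries were 3 of Vil-Ogt KO ileum, 2 of WT ileum, 3 of Vil-Ogt KO colon and 3 of WT colon. The deposited tables give 1 log2 FPKM value (fragments per kilobase of transcript, scaled to the mapped reads of a library, the unit of every level below) per genotype and gene, so no spread between libraries and no test stand behind any difference below: each is a description, and "higher" or "lower" says only how the 2 listed values lie. Differences are Vil-Ogt KO minus WT on the log2 scale, where 1 is a 2-fold difference.

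Autophagosomes form in steps. The ULK1 complex, under the control of nutrient-sensing kinases, starts the process, and the VPS34 lipid kinase complex around Beclin 1 marks the membrane where the vesicle grows. ATG9A vesicles and the lipid transfer protein ATG2 supply membrane, a pair of linked conjugation systems couples ATG12 to ATG5 and the small ATG8 proteins (LC3 and GABARAP) to lipid, and receptors such as p62 and optineurin tie cargo to the coated membrane. In the gut, autophagy supports granule secretion by Paneth cells and defence against invading bacteria, and variants of ATG16L1, NOD2 and IRGM are known risk factors for Crohn's disease in humans.

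The stretches of promoter below are shown for the genes on which the later comparisons turn: Optn, which had the highest difference of the 37 genes in both tissues, Atg3 and Atg5, which held an E-box, and Irgm1 with its relatives Irgm2 and Igtp, which were all lower in Vil-Ogt KO colon. Each is the 150 bases before the annotated start, 5′ to 3′ on the gene's strand, from the RefSeq promoter table of build GRCm38.p6, and capitals mark matches to 3 motifs searched in the 250 bases before each start, on both strands: the E-box CACGTG, bound by TFEB and other helix-loop-helix factors, the STAT site GAS (TTCNNNGAA) and the core of the interferon-stimulated response element, ISRE (GAAANNGAAA). No motif overlapped another kind in these stretches.
Optn (chr2:5064118-5064267, minus strand): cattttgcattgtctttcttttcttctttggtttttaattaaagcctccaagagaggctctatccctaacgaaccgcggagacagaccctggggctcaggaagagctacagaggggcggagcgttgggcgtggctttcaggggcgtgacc
Atg3 (chr16:45158679-45158828, plus strand): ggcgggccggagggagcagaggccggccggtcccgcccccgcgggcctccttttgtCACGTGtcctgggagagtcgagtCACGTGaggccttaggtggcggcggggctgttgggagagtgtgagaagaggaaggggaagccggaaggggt
Atg5 (chr10:44268189-44268338, plus strand): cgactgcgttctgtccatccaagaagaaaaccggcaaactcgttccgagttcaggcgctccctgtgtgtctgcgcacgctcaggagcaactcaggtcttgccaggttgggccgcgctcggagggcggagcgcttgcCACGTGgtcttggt
Irgm1 (chr11:48871421-48871570, minus strand): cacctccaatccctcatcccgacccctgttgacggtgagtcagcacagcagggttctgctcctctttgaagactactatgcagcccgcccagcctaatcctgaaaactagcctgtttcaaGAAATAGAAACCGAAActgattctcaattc
Irgm2 (chr11:58214827-58214976, plus strand): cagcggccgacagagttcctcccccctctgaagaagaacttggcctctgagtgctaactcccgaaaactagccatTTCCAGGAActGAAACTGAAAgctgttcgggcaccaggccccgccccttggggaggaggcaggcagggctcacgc
Igtp (chr11:58199406-58199555, plus strand): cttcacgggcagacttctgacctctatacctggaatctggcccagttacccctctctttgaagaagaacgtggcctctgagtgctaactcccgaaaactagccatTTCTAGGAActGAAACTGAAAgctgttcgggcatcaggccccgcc

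Of the 37 genes, 31 had a promoter in that table. The E-box was found in 3 of them (9.68%), Atg3, Atg5 and Atg7, against 6.86% of all 27025 genes of the table. Atg3 held it at 2 places, 94 and 71 bases before the start, and Atg5 at 14 bases. The start used for Atg7 lies 27999 bases inside the gene as GENCODE places it, so its stretch is not the promoter of the full gene and is not shown. For 4 of the 31 genes (Atg14, Wipi2, Atg4b and Atg7) the RefSeq start nearest to the GENCODE start was more than 1000 bases from it, as it was for Irgm2 outside the 37 (15359 bases, where GENCODE also counts a longer transcript). The GAS motif was found in 4 of the 31 (12.9%), Wipi1, Gabarap, Gabarapl1 and Nbr1, against 8.13% of all genes. The ISRE core was found in 1 of the 31 (3.23%), Irgm1, against 3.46% of all genes; in Irgm1 it occurred at 2 overlapping positions. The stretch printed for Optn held none of the 3 motifs. A match says only that these letters are present.

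Before the comparisons, several values of the tables as a whole bear on how they can be read. Ogt, the targeted gene, was listed at 3.92 FPKM in Vil-Ogt KO ileum and 10.5 FPKM in WT ileum, and at 8.17 FPKM in Vil-Ogt KO colon and 32.4 FPKM in WT colon. Fabp6, the bile acid binding protein of ileal enterocytes, was listed at 15393 and 4153 FPKM in Vil-Ogt KO and WT ileum and at 93.1 and 11.6 FPKM in Vil-Ogt KO and WT colon, in the order that the tissue labels give. The WT ileum values also included colonocyte markers: 5 of 5 were at least 2-fold lower in Vil-Ogt KO ileum, with a sum of 254 FPKM in Vil-Ogt KO ileum and 6360 FPKM in WT ileum, of which Car1 made up 170 and 5914 FPKM. Car1 was not listed for the colon. Slc37a2 ran against the order of the labels, at 92.4 FPKM in WT ileum and 59.3 FPKM in WT colon, while Aqp8, Slc26a3 and Car4 were higher in WT colon. Every ileum difference below is measured against these WT ileum values. Other cell type markers differed as well. In the ileum, 8 of 8 enterocyte markers were at least 2-fold higher in Vil-Ogt KO (sums 27372 and 4954 FPKM in Vil-Ogt KO and WT), as were 11 of 11 markers of T cells and intraepithelial lymphocytes (570 and 106 FPKM) and 4 of 6 Paneth cell markers (9209 and 1059 FPKM), while 3 of 6 goblet cell markers (2655 and 5158 FPKM), 3 of 5 stem cell markers (80.9 and 433 FPKM) and 4 of 6 listed stroma markers (20.9 and 36.3 FPKM) were lower. Of 6 listed myeloid markers 4 were at least 2-fold higher and 2 lower in Vil-Ogt KO ileum (34.5 and 44.0 FPKM), and those higher included S100a8 (log2 difference 5.95) and S100a9 (5.45). In the colon, 6 of 11 lymphocyte markers were at least 2-fold lower in Vil-Ogt KO (27.5 and 64.7 FPKM), as were 3 of 4 listed colonocyte markers (400.1 and 832.9 FPKM), and 5 of 6 goblet cell markers (4889 and 1604 FPKM), 5 of 7 listed enterocyte markers (174 and 94.7 FPKM) and 3 of 5 listed Paneth cell markers (35.1 and 36.3 FPKM) were higher. Of those higher, Fabp1, Apoa1 and Apoa4 lay below 1 FPKM in both genotypes, and Lyz1 (1.39 and 0.493 FPKM) and Mmp7 (1.60 and 0.603 FPKM) were low. Fabp6, Sis (11.8 and 1.40 FPKM) and Defa24 (5.94 and 1.61 FPKM) were higher at greater levels. Slc5a1, the most abundant enterocyte marker in WT colon, was lower (36.0 and 62.7 FPKM). Ang4, most of the Paneth cell sum, was lower too (24.1 and 32.2 FPKM). S100a8 and S100a9 were listed at 0 in WT colon and at 4.76 and 2.60 FPKM in Vil-Ogt KO colon, and no other marker of the lists named here was at 0. The part of these shifts in the differences of the autophagy genes was not tested, and in RNA of a mixed preparation fewer cells of a type and less RNA per cell cannot be told apart.

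Most autophagy genes differed less than 2-fold between genotypes. In the ileum, 4 of the 37 were at least 2-fold higher in Vil-Ogt KO (Optn, Atg16l2, Atg3 and Atg4a), 2 were at least 2-fold lower (Nod2 and Pik3r4) and 31 lay within 2-fold. Of all named genes of the ileum with a value above 0 in both genotypes, 15.3% were at least 2-fold higher and 15.2% at least 2-fold lower (12.4% and 13.7% of those whose mean reached 1 FPKM), so the shares of autophagy genes past 2-fold were not above those of all genes. On the log2(FPKM + 1) scale, which weighs low levels less, the ileum counts were 2 higher and 0 lower. In the colon, 1 of the 37 was at least 2-fold higher (Optn), 3 were at least 2-fold lower (Nod2, Wipi1 and Irgm1) and 33 lay within 2-fold, beside 7.27% higher and 8.38% lower of all named genes (5.16% and 6.72% of those whose mean reached 1 FPKM). Optn and Nod2 were the only genes of the 37 past 2-fold in both tissues, each in the same direction. At 1.5-fold, 10 of the 37 were higher and 4 lower in Vil-Ogt KO ileum, beside 23.5% and 28% of all named genes. In Vil-Ogt KO colon 3 were higher and 9 lower at that size, beside 14% and 18.2%.

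**Figure D1:**
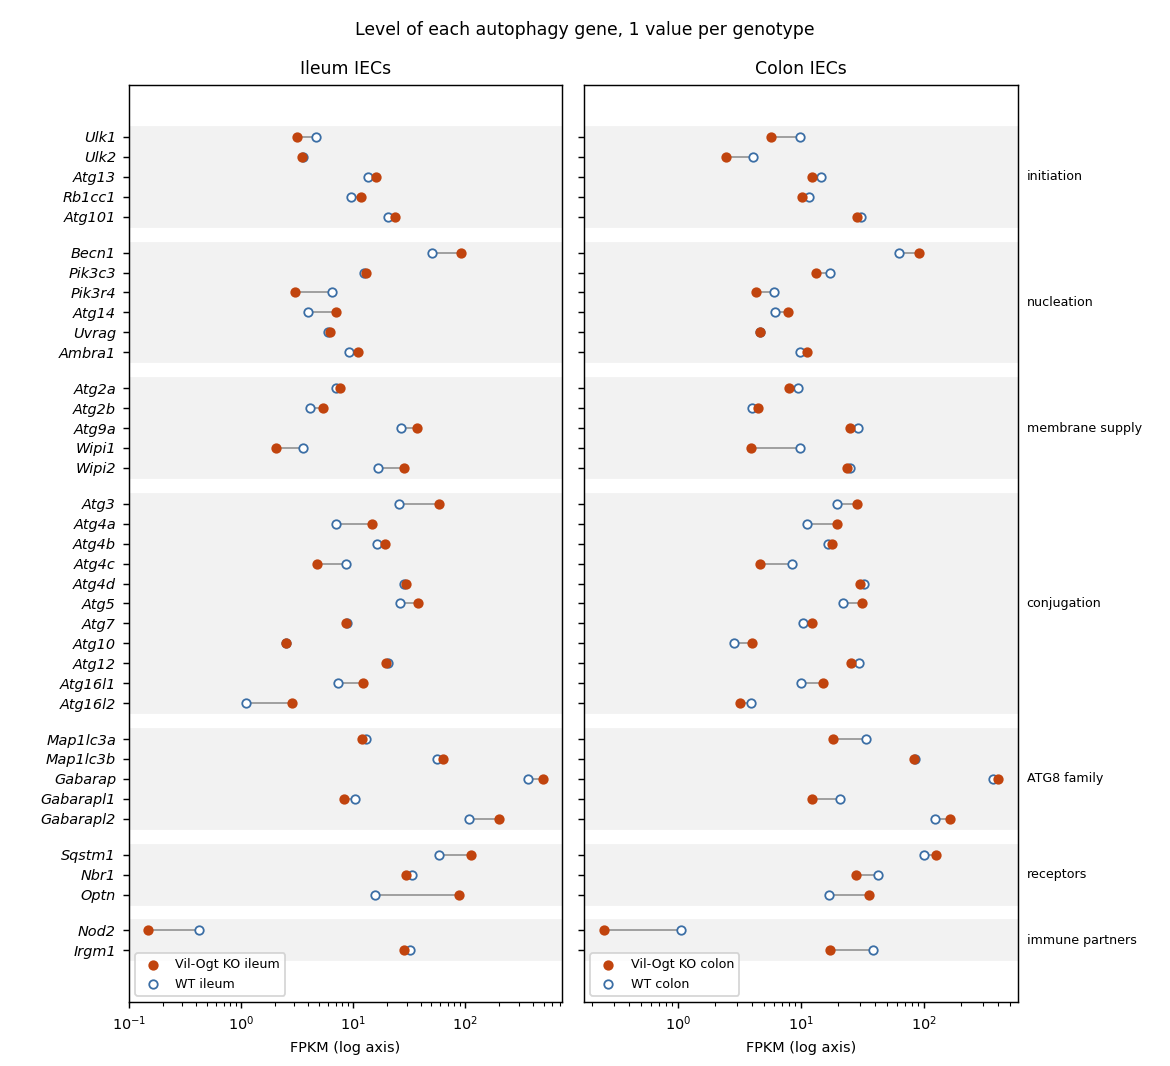
Level of each of the 37 autophagy genes in FPKM on a log axis, grouped by step, with filled points for Vil-Ogt KO and open points for WT; ileum on the left and colon on the right, 1 value per genotype. Optn (87.4 and 15.8 FPKM in Vil-Ogt KO and WT ileum) has the widest gap to the right, and Nod2 lies at 1.06 FPKM or less in every group.

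The middle of the list lay in different places in the 2 tissues. The median difference of the 37 genes was 0.20 in the ileum, beside -0.07 for all named genes there, and -0.09 in the colon, beside -0.045 for all named genes there. By sign alone, 25 genes were higher and 12 lower in Vil-Ogt KO ileum, and 15 were higher, 21 lower and 1 equal in Vil-Ogt KO colon, beside 46.6% of all named genes higher in the ileum and 46.2% in the colon. Summed over the 37 genes, the level was 1513 FPKM in Vil-Ogt KO ileum and 1042 FPKM in WT ileum, and 1337 FPKM in Vil-Ogt KO colon and 1252 FPKM in WT colon.

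**Figure D2:**
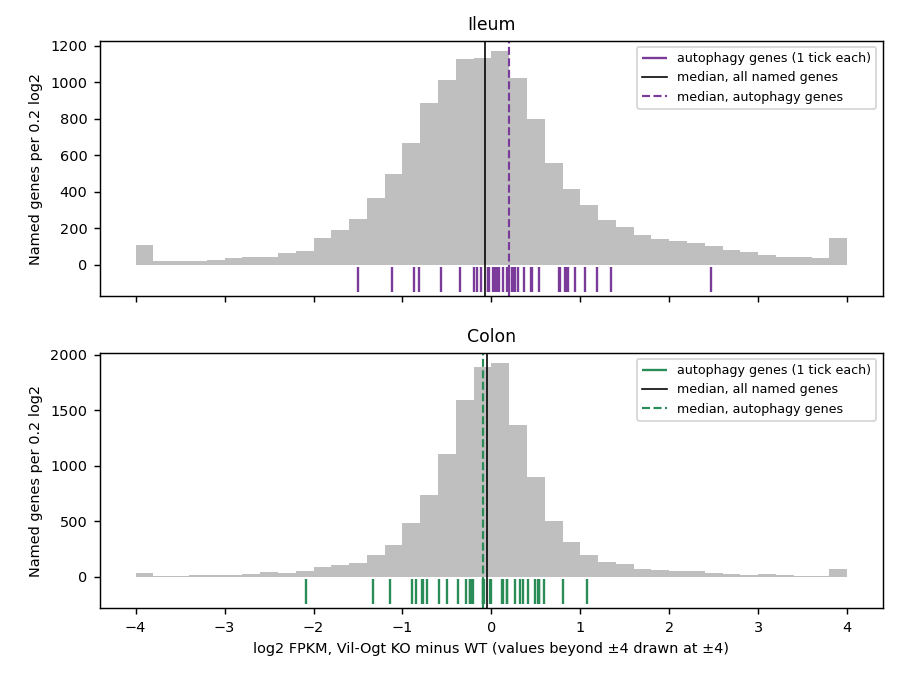
Differences of log2 FPKM, Vil-Ogt KO minus WT, for all named genes (grey, number of genes per 0.2 log2) and for each of the 37 autophagy genes (ticks) in ileum and colon. The dashed median of the autophagy genes lies at 0.20 in the ileum, against -0.09 in the colon, and the solid median of all named genes at -0.07 and -0.045.

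The initiation genes were lower in the colon without exception, past 1.5-fold for the kinase genes Ulk1 and Ulk2 and by less for the others. The complex joins the kinase ULK1 or ULK2 to the scaffold proteins ATG13, FIP200 (the product of Rb1cc1) and ATG101. All 5 genes were lower in Vil-Ogt KO colon, with a median difference of -0.24, while in the ileum 3 were higher and the median was 0.20. Of all named genes, 46.2% were higher in Vil-Ogt KO colon and 46.6% in Vil-Ogt KO ileum. Ulk1 was listed at 3.16 FPKM in Vil-Ogt KO ileum and 4.69 FPKM in WT ileum, and at 5.70 FPKM in Vil-Ogt KO colon and 9.78 FPKM in WT colon (differences -0.57 and -0.78). Ulk2 stood at 3.53 and 3.60 FPKM in Vil-Ogt KO and WT ileum and at 2.48 and 4.08 FPKM in Vil-Ogt KO and WT colon, so only its colon values lay apart (-0.03 and -0.72). The kinases were thus the genes of the complex with the lowest differences in both tissues. The scaffold genes differed little: Atg13 by 0.23 (ileum) and -0.24 (colon), Rb1cc1 by 0.30 and -0.21, and Atg101 by 0.20 and -0.10. Atg101 had the highest level of the step, with 23.8 and 20.7 FPKM in Vil-Ogt KO and WT ileum and 28.8 and 30.9 FPKM in Vil-Ogt KO and WT colon.

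Within the nucleation complex the differences ran in opposite directions. Becn1, which encodes the scaffold Beclin 1, was the most abundant of these genes, with 91.1 FPKM in Vil-Ogt KO ileum against 50.6 FPKM in WT ileum, and 91.1 FPKM in Vil-Ogt KO colon against 63.1 FPKM in WT colon (0.85 and 0.53). Pik3r4, which encodes the regulatory subunit VPS15 that holds the lipid kinase in its complex, was the only one of these genes lower in both tissues. It was at 3.01 FPKM in Vil-Ogt KO ileum and 6.54 FPKM in WT ileum, and at 4.29 FPKM in Vil-Ogt KO colon and 6.06 FPKM in WT colon (-1.12 and -0.50; locus chr9:105642994-105687655). The level of Becn1 was therefore 30.3 times that of Pik3r4 in Vil-Ogt KO ileum against 7.73 times in WT ileum, and 21.3 times in Vil-Ogt KO colon against 10.4 times in WT colon. Atg14, whose product directs the complex to autophagosome formation, followed Becn1, at 7.01 and 3.94 FPKM in Vil-Ogt KO and WT ileum and 7.84 and 6.11 FPKM in Vil-Ogt KO and WT colon (0.83 and 0.36). The catalytic subunit gene Pik3c3 (0.04 in the ileum, -0.38 in the colon), Uvrag, whose product replaces ATG14 in the endosomal form of the complex (0.08 and 0.00), and Ambra1, a Beclin 1 partner (0.27 and 0.18), lay between -0.38 and 0.27. The Becn1 locus of the tables also covers much of the neighbouring gene Cntd1, so its level can include reads of that gene.

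Among the genes of membrane supply, the 2 WIPI genes parted from each other. WIPI proteins bind the lipid made by VPS34 and recruit the later machinery. Wipi1 was listed at 2.06 FPKM in Vil-Ogt KO ileum and 3.60 FPKM in WT ileum, and at 3.94 FPKM in Vil-Ogt KO colon and 9.92 FPKM in WT colon (-0.81 and -1.33). Wipi2, whose product recruits ATG16L1, stood at 28.2 and 16.6 FPKM in Vil-Ogt KO and WT ileum (0.77) but at 23.9 and 25.3 FPKM in Vil-Ogt KO and WT colon (-0.08). Wipi2 exceeded Wipi1 by 13.7 times in Vil-Ogt KO ileum against 4.59 times in WT ileum, and by 6.06 times in Vil-Ogt KO colon against 2.55 times in WT colon. In the colon table the Wipi1 locus (chr11:109440077-109611389) also covers Arsg and Slc16a6, while in the ileum table it starts at 109573329 and covers neither, so the 2 tissues do not measure quite the same interval. Atg9a, which encodes the membrane-spanning protein of the vesicles that seed the structure and whose locus also covers much of Ankzf1 and Glb1l, had the highest level of the step, with 37.0 and 26.9 FPKM in Vil-Ogt KO and WT ileum and 25.1 and 29.2 FPKM in Vil-Ogt KO and WT colon (0.46 and -0.22). The lipid transfer genes Atg2a (0.13 and -0.24) and Atg2b (0.37 and 0.17) differed little, at 3.97 to 9.38 FPKM throughout.

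Of the 11 conjugation genes, 3 were at least 2-fold higher in the ileum (Atg3, Atg16l2 and the row named Atg4a), beside 15.3% of all named genes. On log2(FPKM + 1), Atg16l2 (0.86) and Atg4a (0.95) lay within 2-fold there. In the colon none was past 2-fold, beside 7.27% higher and 8.38% lower of all named genes. The medians were 0.24 in the ileum and 0.26 in the colon. Atg3, the E2-like enzyme that passes ATG8 proteins to lipid, had the highest level of the step in Vil-Ogt KO ileum, 58.9 FPKM, against 25.8 FPKM in WT ileum, where Atg4d and Atg5 were above it (1.19; locus chr16:45158828-45188538). In the colon it was at 28.4 FPKM in Vil-Ogt KO and 19.7 FPKM in WT (0.53). It ranked above 87.2% of all named genes in the ileum by its difference and above 84.2% in the colon. Atg16l2, a relative of Atg16l1, was at 2.85 FPKM in Vil-Ogt KO ileum and 1.12 FPKM in WT ileum, and at 3.23 FPKM in Vil-Ogt KO colon and 3.94 FPKM in WT colon, so that its sign was not shared between tissues (1.35 and -0.29). Its low level makes this fold change depend on small absolute amounts. Atg16l1, the scaffold that places the ATG12-ATG5 conjugate on the membrane and a Crohn's disease risk gene, was at 12.4 and 7.31 FPKM in Vil-Ogt KO and WT ileum and at 15.03 and 9.99 FPKM in Vil-Ogt KO and WT colon (0.76 and 0.59), higher in both tissues without reaching 2-fold in either.

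The other genes of the ATG12 arm were closer to level. Atg5 was at 38.1 and 26.4 FPKM in Vil-Ogt KO and WT ileum and at 31.6 and 22.01 FPKM in Vil-Ogt KO and WT colon, nearly the same difference in both (0.53 and 0.52). Atg7, the E1-like enzyme that serves both conjugation systems, was at 8.63 and 8.88 FPKM in Vil-Ogt KO and WT ileum and at 12.4 and 10.3 FPKM in Vil-Ogt KO and WT colon (-0.04 and 0.26). Atg7 was the only gene of the 37 that was lower in Vil-Ogt KO ileum but higher in Vil-Ogt KO colon, and its locus also covers much of Vgll4. The E2-like enzyme gene Atg10 differed by 0.02 in the ileum, against 0.49 in the colon, at 2.51 to 4.03 FPKM, and Atg12 itself by -0.04 and -0.23, at 19.8 to 29.9 FPKM. Of the 3 genes with an E-box match, Atg3 and Atg5 were among the 14 of the 37 genes that were higher in both tissues, and Atg7 was not. A link between the E-box and these differences was not tested.

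ATG4 proteases trim ATG8 proteins before conjugation and cut them from lipid afterwards. Atg4c was the ATG4 gene with the lowest difference in both tissues, at 4.76 and 8.69 FPKM in Vil-Ogt KO and WT ileum and at 4.66 and 8.40 FPKM in Vil-Ogt KO and WT colon (-0.87 and -0.85). Atg4b, the most active member, differed by 0.24 and 0.12, so the level of Atg4c relative to Atg4b was 0.245 in Vil-Ogt KO ileum against 0.529 in WT ileum, and 0.259 in Vil-Ogt KO colon against 0.507 in WT colon. Atg4d had the highest level of the conjugation genes in the colon for WT (30.5 and 32.4 FPKM in Vil-Ogt KO and WT; -0.09), and stood at 29.4 and 28.2 FPKM in Vil-Ogt KO and WT ileum (0.06); its locus also covers much of Kri1. The row named Atg4a was at 14.6 and 7.06 FPKM in Vil-Ogt KO and WT ileum and at 19.6 and 11.2 FPKM in Vil-Ogt KO and WT colon (1.05 and 0.81). That row is uncertain, because its locus (chr3:103575281-103646068 of mm10) lies over Syt6 and the copy Atg4a-ps, while GENCODE places Atg4a on chromosome X. Within the X-linked gene, a locus without a name (from chrX:140986351, ending at 140990207 in the ileum table and at 140990227 in the colon table) touched 4 of the 14 annotated exon intervals of Atg4a. It was listed at 20.8 FPKM in Vil-Ogt KO ileum and 6.41 FPKM in WT ileum, and at 16.9 FPKM in Vil-Ogt KO colon and 6.77 FPKM in WT colon (1.70 and 1.32). The row on chromosome 3 and this locus on chromosome X thus both had higher values in Vil-Ogt KO. Without Atg4a, the ileum count of genes at least 2-fold higher was 3 and the median of the other 36 genes 0.18.

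**Figure D3:**
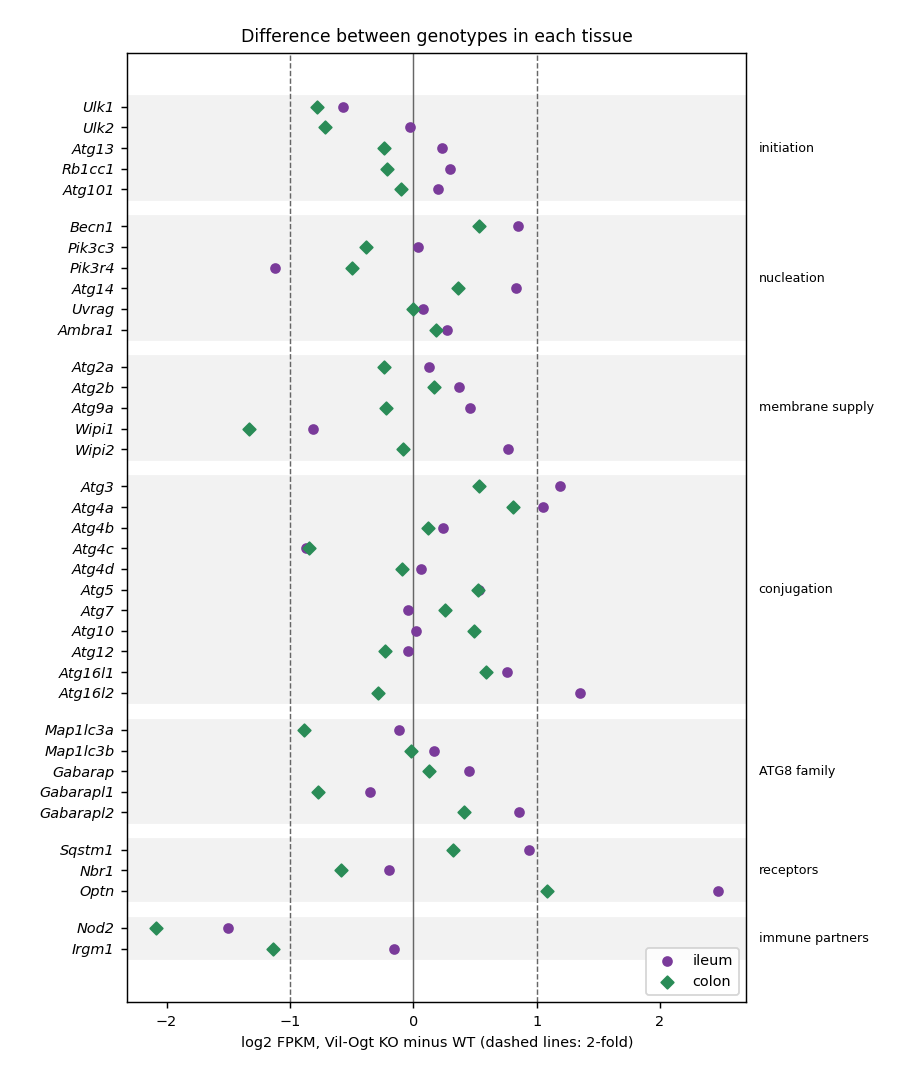
Difference between genotypes for each of the 37 autophagy genes, Vil-Ogt KO minus WT in log2 FPKM, with circles for ileum and diamonds for colon; dashed lines mark 2-fold. The circle lies to the right of the diamond for 33 of the 37 genes, and Optn (2.47 and 1.08) and Nod2 (-1.5 and -2.09) are at the ends.

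ATG8 proteins are the small ubiquitin-like proteins that coat the membrane, and they fall into an LC3 branch and a GABARAP branch. By summed level the GABARAP branch dominated. Gabarap was the most abundant of the 37 genes in every group, with 491 FPKM in Vil-Ogt KO ileum and 360 FPKM in WT ileum, and 402 FPKM in Vil-Ogt KO colon and 367 FPKM in WT colon (0.45 and 0.13). Its row names Ctdnep1 as well and the locus also covers Elp5, so this level is not that of Gabarap alone. Gabarapl2 stood at 198 and 109 FPKM in Vil-Ogt KO and WT ileum and at 164 and 124 FPKM in Vil-Ogt KO and WT colon (0.86 and 0.41). Gabarapl1, the third gene of the branch, was lower instead, at 8.22 and 10.5 FPKM in Vil-Ogt KO and WT ileum and at 12.2 and 20.8 FPKM in Vil-Ogt KO and WT colon (-0.35 and -0.77). The level of Gabarapl2 was thus 24.1 times that of Gabarapl1 in Vil-Ogt KO ileum against 10.4 times in WT ileum, and 13.5 times in Vil-Ogt KO colon against 5.94 times in WT colon.

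In the LC3 branch, Map1lc3b, the gene behind the usual LC3 marker of autophagosomes, hardly differed, at 63.6 and 56.5 FPKM in Vil-Ogt KO and WT ileum and at 82.7 and 83.9 FPKM in Vil-Ogt KO and WT colon (0.17 and -0.02). Map1lc3a was at 12.0 and 13.1 FPKM in Vil-Ogt KO and WT ileum and at 18.4 and 34.1 FPKM in Vil-Ogt KO and WT colon (-0.12 and -0.89). As a share of the summed ATG8 level, Gabarapl2 made up 25.6% in Vil-Ogt KO ileum against 19.9% in WT ileum, and 24.2% in Vil-Ogt KO colon against 19.6% in WT colon. Map1lc3a made up 2.71% in Vil-Ogt KO colon against 5.41% in WT colon, and the row of Gabarap between 58.3% and 65.5% in every group. Because that row also covers Ctdnep1 and Elp5, every share rests on a sum that can include reads of those genes. Both Map1lc3a and Gabarapl1 had smaller shares in Vil-Ogt KO in both tissues (1.56% against 2.38% and 1.06% against 1.91% in the ileum).

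Receptors bind marked cargo with one end and ATG8 proteins with the other, and the highest difference of the 37 genes in both tissues was found among them. Optn encodes optineurin, a receptor for ubiquitin-coated bacteria and mitochondria. It was listed at 87.4 FPKM in Vil-Ogt KO ileum against 15.8 FPKM in WT ileum, a 5.54-fold difference (2.47; chr2:5020641-5063938), and at 36.0 FPKM in Vil-Ogt KO colon against 17.0 FPKM in WT colon, a 2.11-fold difference (1.08). Its difference was above that of 95.7% of all named genes in the ileum, against 93.5% in the colon. WT levels of Optn were alike in both tables (15.8 and 17.0 FPKM), although the tables were normalized separately. Sqstm1, which encodes p62, had the highest level of the step, at 113 and 58.9 FPKM in Vil-Ogt KO and WT ileum and at 125 and 100.4 FPKM in Vil-Ogt KO and WT colon (0.94 and 0.32); its locus also covers much of Mrnip.

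Nbr1, a p62 relative that forms cargo clusters with it, did not share this pattern. Nbr1 was at 29.4 and 33.8 FPKM in Vil-Ogt KO and WT ileum and at 28.2 and 42.5 FPKM in Vil-Ogt KO and WT colon (-0.20 and -0.59). Relative to Nbr1, the level of Optn was 2.97 times in Vil-Ogt KO ileum against 0.467 times in WT ileum, and 1.27 times in Vil-Ogt KO colon against 0.401 times in WT colon. The order of Optn and Nbr1 was therefore reversed between genotypes in both tissues. Sqstm1 was 3.84 times the level of Nbr1 in Vil-Ogt KO ileum against 1.74 times in WT ileum, and 4.44 times in Vil-Ogt KO colon against 2.36 times in WT colon.

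The immune partners had the lowest median difference of the steps, -0.83 in the ileum, against -1.62 in the colon. NOD2 senses bacterial peptidoglycan and recruits ATG16L1 to sites of entry. Nod2 was near the bottom of both tables, at 0.1497 FPKM in Vil-Ogt KO ileum and 0.423 FPKM in WT ileum, and at 0.250 FPKM in Vil-Ogt KO colon and 1.06 FPKM in WT colon (-1.5 and -2.09; chr8:88647346-88688474). Its difference was above that of only 7.22% of named genes in the ileum, against 1.92% in the colon, and at such levels a few reads can decide the ratio. Irgm1, an interferon-inducible GTPase that promotes clearance of bacteria in mice, was at 28.6 and 32.0 FPKM in Vil-Ogt KO and WT ileum, almost level (-0.16). In the colon it was at 17.4 FPKM in Vil-Ogt KO and 38.3 FPKM in WT, 2.20-fold lower in Vil-Ogt KO (-1.14), with a difference above that of only 6.69% of the named genes there.

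The colon difference of Irgm1 was shared by its relatives. Of 11 further interferon-inducible GTPase genes 10 were listed, and 9 of the 10 were at least 2-fold lower in Vil-Ogt KO colon with a median of -2.28, beside 8.38% of all named genes. In the ileum 3 were at least 2-fold higher, beside 15.3% of all named genes, none was at least 2-fold lower and the median was 0.32. Of the genes past 2-fold, Tgtp1 and Tgtp2 in the colon and Gbp4 in the ileum lay below 1 FPKM in both genotypes, so few reads can decide their ratios. Irgm2 was at 5.58 FPKM in Vil-Ogt KO colon and 16.7 FPKM in WT colon (-1.58), but at 9.71 and 8.46 FPKM in Vil-Ogt KO and WT ileum (0.20). Igtp was at 5.98 FPKM in Vil-Ogt KO colon and 18.3 FPKM in WT colon (-1.61), and at 18.6 and 10.6 FPKM in Vil-Ogt KO and WT ileum (0.81). Irgm1 and these 2 relatives were thus past 2-fold in the colon and within 2-fold in the ileum. Iigp1, at 0.801 FPKM in Vil-Ogt KO colon and 7.31 FPKM in WT colon (-3.19), and the guanylate-binding protein genes Gbp3 (-2.74), Gbp6 (-2.45) and Gbp2 (-2.10) were lower there as well. In the ileum, Gbp7 (1.10; 1.60 and 0.747 FPKM in Vil-Ogt KO and WT) was at least 2-fold higher. The ISRE core was present before the start of all 9 genes of this group, Irgm1 included, that had a promoter in the table, beside 3.46% of all genes. Gbp5, 1 of the 9, was not listed in either tissue. Because the group was chosen as interferon-inducible, the element is likely in it beforehand, and the count says nothing about the colon difference. Lymphocyte markers, whose cells also express these GTPases, were likewise higher in Vil-Ogt KO ileum and lower in Vil-Ogt KO colon (570 and 106 FPKM in Vil-Ogt KO and WT ileum, 27.5 and 64.7 FPKM in Vil-Ogt KO and WT colon), and their part in this difference was not tested.

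**Figure D4:**
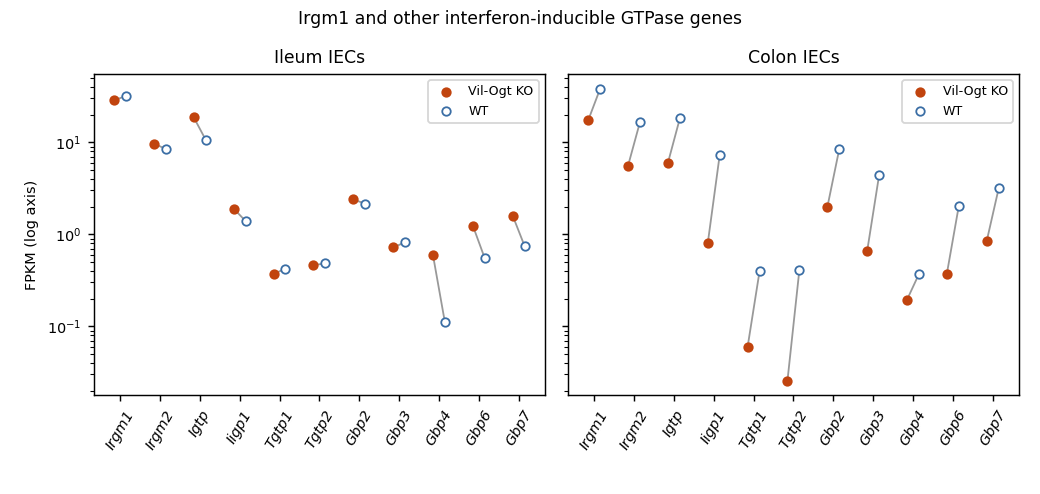
Levels of Irgm1 and of the 10 other listed interferon-inducible GTPase genes in FPKM on a log axis, with Vil-Ogt KO (filled) left of WT (open) for each gene, 1 value per genotype. In the colon every pair slopes up towards WT, while in the ileum the pairs slope both ways and Irgm1 is almost level (28.6 and 32.0 FPKM).

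Set side by side, the ileum and colon differences of the 37 genes were ordered one way. The ileum difference exceeded the colon difference in 33 of 37 genes (89.2%), beside 45.1% of the 11839 named genes with values above 0 in both tables, and the median of ileum minus colon was 0.37, beside -0.07. The 4 exceptions were Atg7, Atg10, Atg4c and Pik3r4. The summed markers of lymphocytes, enterocytes and Paneth cells were ordered the same way between tissues. Those of goblet cells, colonocytes, stem cells, myeloid cells and stroma were ordered the other way. The part of any of these shifts in the order of the autophagy genes was not tested. By sign, 14 genes were higher in Vil-Ogt KO in both tissues and 11 lower in both, beside 31.4% and 39.1% of all named genes. A further 10 were higher in Vil-Ogt KO ileum but lower in Vil-Ogt KO colon (27.0%, beside 13.6% of all named genes): Atg13, Rb1cc1, Atg101, Pik3c3, Atg2a, Atg9a, Wipi2, Atg4d, Atg16l2 and Map1lc3b. The 11 lower in both tissues were Ulk1, Ulk2, Pik3r4, Wipi1, Atg4c, Atg12, Map1lc3a, Gabarapl1, Nbr1, Nod2 and Irgm1. The 14 higher in both were Becn1, Atg14, Ambra1, Atg2b, Atg3, Atg4a, Atg4b, Atg5, Atg10, Atg16l1, Gabarap, Gabarapl2, Sqstm1 and Optn. Whether ileum and colon came from the same mice is not given in the sources used here.

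The wider pathway was read from lists of genes outside the 37. Beside the counts of every list below, 15.3% of all named genes were at least 2-fold higher and 15.2% lower in the ileum. In the colon these shares were 7.27% and 8.38%. Among 10 other early factors, 1 was at least 2-fold higher in Vil-Ogt KO ileum and none in either direction in the colon (medians 0.62 and 0.28). That gene was Tbk1, which encodes the kinase that phosphorylates optineurin, at 42.2 and 13.9 FPKM in Vil-Ogt KO and WT ileum (1.60) and at 27.9 and 19.2 FPKM in Vil-Ogt KO and WT colon (0.54). Among 15 further receptors 14 were listed, and in the ileum 2 of them were at least 2-fold higher and 3 lower, in the colon 1 lower (medians -0.46 and -0.36). Bnip3, a mitophagy receptor, was at 26.4 FPKM in Vil-Ogt KO ileum and 3.12 FPKM in WT ileum (3.08), but at 7.52 and 5.98 FPKM in Vil-Ogt KO and WT colon (0.33). Calcoco1, an ER-phagy receptor, was at 0.835 and 4.23 FPKM in Vil-Ogt KO and WT ileum and at 1.12 and 10.1 FPKM in Vil-Ogt KO and WT colon (-2.34 and -3.17). Bnip3 in the ileum and Calcoco1 in the colon thus lay further from 0 than Optn did. Tollip, an adaptor for protein aggregates, was higher in the ileum (1.5; 62.2 and 22.01 FPKM in Vil-Ogt KO and WT), and Retreg1, an ER-phagy receptor listed as Fam134b, was lower (-1.60; 3.56 and 10.8 FPKM in Vil-Ogt KO and WT).

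Downstream, 2 of 14 genes for fusion with lysosomes were at least 2-fold higher in the ileum and 1 in the colon, beside 15.3% and 7.27% of all named genes. None was at least 2-fold lower in either tissue (medians 0.55 and 0.45). The 2 genes past 2-fold in the ileum belong to the tethering complexes HOPS and CORVET: Vps11 was at 25.8 and 9.32 FPKM in Vil-Ogt KO and WT ileum and at 21.6 and 10.7 FPKM in Vil-Ogt KO and WT colon (1.47 and 1.01), and Vps18 differed by 1.17 and 0.81. Other genes of these complexes went both ways. Vps16 (0.55 and 0.80) and Vps33a (0.06 and 0.54) were higher, while Vps39 (-0.21 and -0.32) and Vps41 (-0.27 and -0.40) were lower in both tissues. Upstream, of 20 genes of nutrient control 1 was at least 2-fold higher and 1 lower in the ileum and none in the colon (medians 0.20 and 0.10). These were Ddit4, an inhibitor of the kinase mTOR (1.03; 24.9 and 12.2 FPKM in Vil-Ogt KO and WT ileum), and Deptor, a subunit that restrains mTOR (-1.69; 6.28 and 20.3 FPKM in Vil-Ogt KO and WT ileum). Of 10 transcription factors and p53-linked regulators 8 were listed, and 1 was at least 2-fold lower, in the colon (medians 0.08 and -0.19). This was Tfeb, the factor that drives lysosomal and autophagy genes through E-box sites, at 4.79 and 10.7 FPKM in Vil-Ogt KO and WT colon (-1.16) and at 3.34 and 6.41 FPKM in Vil-Ogt KO and WT ileum (-0.94).

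Of 4 regulators that act on Beclin 1 from the BCL2 side, 2 were at least 2-fold higher in the ileum and none in the colon (medians 0.96 and 0.28). Pmaip1, which encodes the BH3-only protein NOXA, was at 17.8 and 5.66 FPKM in Vil-Ogt KO and WT ileum (1.65), and Bcl2l1, whose product BCL-XL binds Beclin 1, at 35.8 and 17.4 FPKM in Vil-Ogt KO and WT ileum (1.04). The list of NOD signalling partners gave no difference past 2-fold (5 genes in the ileum, 4 listed in the colon; medians 0.37 and 0.02). Its member Nod1, the closest relative of Nod2, was lower like Nod2, at 2.01 and 3.97 FPKM in Vil-Ogt KO and WT ileum and at 2.57 and 4.50 FPKM in Vil-Ogt KO and WT colon (-0.98 and -0.81).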

How the data were processed

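RNA of IECs was sequenced as 11 libraries, and per the methods equal amounts of RNA were pooled for library construction; the number of mice per library is not given in the sources used here. The submitters' notes name TopHat (1.0.0), Bowtie and Cufflinks with build mm10. The deposited log2 FPKM values, made by the authors, are 1 per genotype and locus in a table for each tissue, with -10 for 0 FPKM; depth per library is unknown, and levels were normalized within a table. The authors' 3 columns of their own comparison (log2 ratio, q-value, mark of significance) were not used, and 0 columns of per-sample values were left out.

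Differences were log2 FPKM of Vil-Ogt KO minus WT. Ratios between 2 genes restate their 2 differences, and the pairs were mostly of genes that differed in opposite directions. The tables held 16521 loci for the ileum and 18122 for the colon, with 1 emptied line each. Loci without a name (3505 and 4815) were set aside, and where loci shared a name, the most abundant was kept (Uvrag, Atg4c and Atg4d in the ileum). The less abundant loci left out differed by 3.84 for Uvrag, -0.73 for Atg4c and 1.75 for Atg4d. Genes at 0 in a genotype were left out of differences, which left 12629 in the ileum and 12814 in the colon. Members and lists were chosen with earlier results of these data known. Described in full were members past 2-fold in a tissue, those with the highest level of their step and those the study names; of other lists, at most 4 genes past 2-fold with a mean of at least 1 FPKM. Irgm2 and Igtp were named after their values were seen. Vps16, Vps33a, Vps39, Vps41 and Nod1, all within 2-fold, were named outside this rule. So were Tgtp1, Tgtp2 and Gbp4, past 2-fold but below 1 FPKM, and single cell type markers. Promoters came from RefSeq (GRCm38.p6) and gene positions from GENCODE vM21. Alternatives were log2(FPKM + 1), a minimum of 1 FPKM, summed loci, single-name loci, centring and 1.5-fold; leaving out Atg4a was chosen after seeing the data. The steps were run on simulated data with set differences and no noise, which checks the arithmetic but not the spread between libraries. Software was Python 3.11.15, NumPy 2.4.6, pandas 2.3.3 and matplotlib 3.10.9.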

Additional observations from a re-analysis of the deposited data

How the results depend on the processing

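Counts past 2-fold moved with the scale and the size asked for. On log2(FPKM + 1), 2 autophagy genes were at least 2-fold higher and 0 at least 2-fold lower in Vil-Ogt KO ileum. With a mean of at least 1 FPKM, 1 was lower there, since Nod2 drops below the minimum. At 1.5-fold, the ileum had 10 higher and 4 lower, beside 23.5% and 28% of all named genes. The colon had 3 higher and 9 lower, beside 14% and 18.2%. The other 33 of 40 recomputed counts and medians stayed within 1.5 times of the reported count or within 0.1 of the reported median, and no value changed sign. Among named genes, 6 of 16 differences moved by more than 0.1 on log2(FPKM + 1), toward 0 in each case: in the ileum Pik3r4 to -0.91, Atg16l2 to 0.86, Nod2 to -0.31 and Wipi1 to -0.59, and in the colon Nod2 to -0.72 and Wipi1 to -1.14. No paired analysis was possible because the tables give 1 value per genotype, and for the same reason no replicate could be left out. Low values such as Nod2 and Atg16l2 rest on unknown numbers of reads.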
